A study of Mus musculus with 29 samples.

Results

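The RNAs described here are 10 long transcripts that are best known for work done as RNA, most of it in the nucleus: Malat1, Neat1, Miat, Meg3, Rian, Mirg, Kcnq1ot1, Peg13, Snhg11 and Gas5. They were taken by gene symbol from the table of 36172 gene rows, and each symbol matched 1 row. All 10 passed the filter on low counts in every comparison, and the lowest count of any of them in any of the 29 libraries was 50 (Mirg). Levels are given as CPM, a row's count divided by the library's total count and scaled to a total of 1000000.

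The study used TRAP (translating ribosome affinity purification), in which ribosomes carrying an EGFP tag are pulled out of brain homogenate with their RNA. In Aldh1l1-NuTRAP mice (Aldh1l1-cre/ERT2+/wt; NuTRAP flox/wt) the Cre recombinase that switches on the tag is driven by Aldh1l1, an astrocyte gene. In Cx3cr1-NuTRAP mice (Cx3cr1-cre/ERT2+/wt; NuTRAP flox/wt) it is driven by Cx3cr1, a gene of microglia and other cells of that lineage. All mice carried a Cre and the NuTRAP allele, all received tamoxifen on 5 consecutive days, and all were about 3 months old, of both sexes, and the sex of each mouse was not given in the sources used here. The lines were not handled alike after tamoxifen: the study's account of each line gives brain collection 1 week after it in Aldh1l1-NuTRAP and 3 to 4 weeks after it in Cx3cr1-NuTRAP mice, stated for the cytometry and staining of the lines and not separately for these libraries. Mice were killed by cervical dislocation or by perfusion with saline, and which mouse had which is not given in the sources used here. A hemisphere of each brain was lysed in a buffer with a non-ionic detergent and cleared by centrifugation, and the supernatant was the input. What the anti-GFP beads held was the positive fraction, and what they left was the negative fraction. The groups were the positive and negative fractions of 3 Aldh1l1-NuTRAP mice (mice 290, 293 and 294), and the positive fraction, negative fraction and input of 6 Cx3cr1-NuTRAP mice (mice 155, 192, 194, 209, 210 and 277), with whole tissue RNA, extracted without the TRAP steps, from 5 of them (all but mouse 155). The titles of the whole tissue libraries call them slices. Which part of the brain a slice held is not given in the sources used here. Library totals ranged from 4260949 counts (whole tissue of mouse 210) to 26857866.

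Long noncoding RNAs are transcribed and often spliced like messenger RNAs but are not read into a conserved protein. Malat1 lies in nuclear speckles, the bodies where splicing factors collect. Neat1 is the scaffold of paraspeckles, and Miat (also called Gomafu) lies in its own nuclear foci, mostly in neurons. Meg3, Rian and Mirg come from the maternal copy of the imprinted Dlk1-Dio3 region, Kcnq1ot1 is the paternally expressed antisense RNA that silences neighbouring genes at the Kcnq1 locus, and Peg13 is a paternally expressed RNA inside an intron of Trappc9. Snhg11 and Gas5 are hosts of small nucleolar RNAs (snoRNAs), whose introns release the snoRNAs while the spliced exons go their own way. A ribosome pull-down is meant to collect translated RNA, so the comparisons below give how each of these RNAs behaved in it.

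On mm10, Malat1 (chr19:5795690-5802671) and Neat1 (chr19:5842302-5845478) lie near each other on the minus strand. The Neat1 row spans the short transcript only, whereas the GENCODE M21 annotation of the same build also has a long transcript of 20771 bases that starts at the same end and runs on to position 5824708. The row is thus the 5′ part that both transcripts share, and how reads from the rest of the long one were counted is not given in the sources used here, so Neat1 levels, per kilobase too, cannot be read as those of the short transcript. Meg3 (chr12:109540996-109571729), Rian (chr12:109603945-109661711) and Mirg (chr12:109734981-109749457) follow each other on the plus strand. Kcnq1ot1 (chr7:143213111-143296547), Peg13 (chr15:72805600-72810324) and Miat (chr5:112213228-112228948) are on the minus strand, and Snhg11 (chr2:158375638-158386145) and Gas5 (chr1:161035166-161038537) on the plus strand. RefSeq places 11 snoRNA genes inside the Rian row, 8 inside Gas5 and 2 inside Snhg11, and 10 miRNA genes inside Mirg, 3 inside Rian and 2 inside Meg3. The longest annotated transcripts of Malat1, Neat1, Kcnq1ot1 and Peg13 have 1 exon. The longest open reading frame in the longest annotated transcript was between 58 codons (Gas5) and 250 codons (Kcnq1ot1). The deposited table labels Snhg11 as protein-coding and the other 9 as miscRNA.

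The libraries were made from RNA that bound oligo-dT beads, so the 3′ ends bear on how these RNAs were caught. Malat1 and the long Neat1 transcript are known to end in an encoded A-rich tract in place of an added poly(A) tail, and the short Neat1 transcript is polyadenylated. The stretches below were read from the GENCODE M21 transcripts (mm10, minus strand). Capitals mark the A-rich tract (at least 5 A, then GCAA), or the poly(A) signal AATAAA in the short transcript:
Malat1, chr19:5795977-5796006: tagctttAAAAAAAAAAAAGCAAAAgacgc
Neat1 long, chr19:5824708-5824737: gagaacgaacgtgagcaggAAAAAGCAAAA
Neat1 short, chr19:5842307-5842336: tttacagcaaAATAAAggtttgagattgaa
The long Neat1 transcript ended with the tract, whereas the annotated Malat1 transcript ran 292 bases past it, and the signal of the short Neat1 transcript stood 14 bases before its end. Searched on the transcript strand only, the tract stood in the last 100 bases of 360 of 139316 annotated transcripts of at least 100 bases (0.258%), and AATAAA in those of 40195 (28.9%).

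Some snoRNA hosts, Gas5 among them, are known to start with a C followed by a run of pyrimidines, as the mRNAs of the translation machinery do. The windows below, from the RefSeq promoter table (GRCm38.p6), hold 10 bases before the start and the first 20 of the transcript, with such a run of at least 5 bases in capitals:
Gas5, chr1:161035156-161035185: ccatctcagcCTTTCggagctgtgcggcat
Snhg11, chr2:158375703-158375732: tgcggcactcactcacgcactcagcctgct
The Gas5 start shown is the first base of its deposited row and opens with the run; the table holds another Gas5 start, upstream, without one, and Snhg11 has none at its start. On the transcript strand, 823 of 32851 promoter entries (2.51%) had a run of at least 5, as had 3 of the 20 entries of snoRNA host genes, namely Gas5, Snhg7 and Snhg8. Of the 8 RNAs described here that have an entry, Miat, which is no snoRNA host, was the other with such a run.

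The labels were checked by marker genes. All 15 astrocyte markers were higher in the Aldh1l1-NuTRAP positive than negative fraction, and all 15 microglial markers in the Cx3cr1-NuTRAP positive fraction than in input. Other cell types were not absent from the positive fractions. The summed level of 20 neuronal markers was 3505 to 4299 CPM in the Aldh1l1-NuTRAP positive fraction and 11381 to 15859.7 CPM in the Cx3cr1-NuTRAP positive fraction, against 14557 to 15222 CPM in the Cx3cr1-NuTRAP input. A lower level of an RNA in a fraction cannot be told apart from a smaller share of the cells that make it.

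Per kilobase of annotated exon within each row, Meg3 and Snhg11 stood highest in the Cx3cr1-NuTRAP input. Meg3 was at 238 ± 18.9 CPM per kb (SD, n = 6) and Snhg11 at 219 ± 19.5, and their libraries overlapped. Peg13 followed at 106 ± 5.17, with all libraries below those of Snhg11 and above those of the next. Neat1 (64.5 ± 7.14), Miat (55.6 ± 6.57) and Malat1 (51.6 ± 9.51) overlapped one another. Rian (29.001 ± 0.856) and Gas5 (24.7 ± 2.91) overlapped as well, and Kcnq1ot1 (3.35 ± 0.583) and Mirg (2.18 ± 0.251) were lowest without overlapping. In the positive fraction of the same mice the order changed at the top, with Malat1 at 419 ± 283 CPM per kb, Meg3 at 286 ± 101 and Snhg11 at 269 ± 145; the libraries of these 3 RNAs overlapped.

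**Figure D1:**
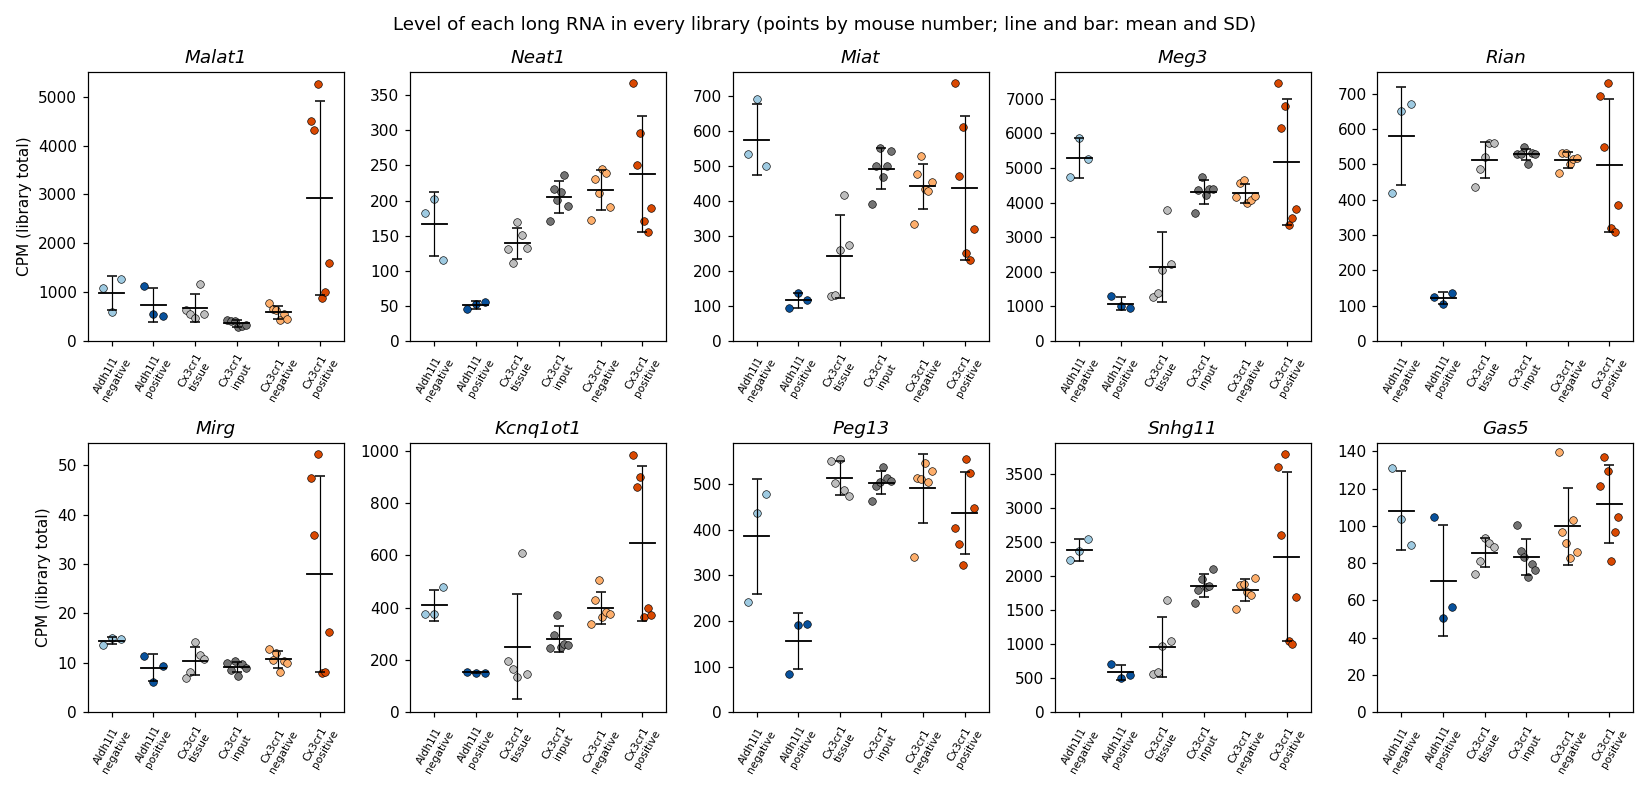
Level of the 10 RNAs in CPM (linear axes that start at 0) in all 29 libraries, with points ordered by mouse number in each group and the mean ± SD drawn in black. In Malat1, Meg3, Snhg11, Mirg and Kcnq1ot1 the Cx3cr1-NuTRAP positive fraction was spread far more widely than the input, and in Meg3, Miat, Rian and Snhg11 all 3 Aldh1l1-NuTRAP positive libraries lay below the negative fraction of that line.

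The first comparison asked which of these RNAs were held by astrocyte ribosomes. In the Aldh1l1-NuTRAP mice 6 of the 10 RNAs fell in the positive fraction against the negative, between 2.11- and 3.90-fold, and none rose. Of all 13324 genes tested, 24.8% were lower and 26.8% higher (edgeR quasi-likelihood test, adjusted p under 0.05). The 6 were Miat, Meg3, Rian, Snhg11, Neat1 and Kcnq1ot1; Malat1, Mirg, Gas5 and Peg13 did not pass the test. The median log2 difference of the 10 was -1.22, and that of all genes 0.04. CPM, overlap and ratios within a mouse are on library totals, whereas fitted differences are on the TMM scale. Over all 29 libraries the TMM factors were 0.731 to 0.779 in the Aldh1l1-NuTRAP positive fraction and 0.969 to 1.02 in its negative. TMM effective totals are library totals times these factors. CPM on library totals thus set the positive fraction of this line lower than the fit did.

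Among the RNAs of nuclear bodies, Malat1 read 1130.1, 557 and 516 CPM in the positive fraction of mice 290, 293 and 294, and 1074, 589 and 1267 CPM in the negative. The fractions overlapped, and on library totals the positive fraction was the higher in mouse 290. On TMM effective totals over all 29 libraries, the positive fraction was also the higher in mouse 293. The log2 difference was -0.06 ± 0.39 (SE, adjusted p = 0.91, edgeR). Neat1 read 45.4, 52.8 and 55.2 CPM in the positive fraction and 182, 202 and 116 CPM in the negative. The fractions did not overlap, and Neat1 fell 2.57-fold (log2 difference -1.36 ± 0.23, adjusted p = 0.0024, edgeR). Miat read 94.3, 137 and 116 CPM in the positive fraction and 534, 690.4 and 499 CPM in the negative. All 3 mice lay lower in the positive fraction, without overlap (3.90-fold, log2 difference -1.96 ± 0.20, adjusted p = 0.00026, edgeR).

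Of the imprinted RNAs, Meg3, the most abundant of the 10 in the negative fraction by CPM not corrected for length, read 1298, 997 and 946 CPM in the positive fraction and 4728, 5866 and 5247 CPM in the negative. Within a mouse, on library totals, the positive fraction held between 0.170 and 0.274 of the level of the negative, and the fractions did not overlap. On the TMM scale of the fit the fall was 3.83-fold (log2 difference -1.94 ± 0.18, adjusted p = 0.00018, edgeR). Rian, host of a cluster of snoRNAs, read 125, 103 and 136 CPM against 420.0, 649.8 and 670.4 CPM. It fell 3.75-fold without overlap (log2 difference -1.91 ± 0.22, adjusted p = 0.00039, edgeR). Mirg, a miRNA host of the same imprinted region, read 11.5, 6.18 and 9.45 CPM against 13.7, 15.02 and 14.8 CPM. Its libraries did not overlap on library totals. On TMM effective totals over all 29 libraries, mouse 290 was the higher in the positive fraction. The fitted difference of -0.34 ± 0.25 did not pass the test (adjusted p = 0.30, edgeR). Kcnq1ot1 varied little within the positive fraction, at 156, 150.2 and 151 CPM against 375, 375 and 478 CPM. It fell 2.11-fold (log2 difference -1.08 ± 0.16, adjusted p = 0.0011, edgeR). Peg13 read 84.2, 191 and 192 CPM against 242, 437 and 478 CPM. In each mouse its positive fraction held between 0.348 and 0.436 of the level of the negative, and mouse 290 was low in both fractions. The difference of -0.96 ± 0.36 missed the threshold without the mouse in the fit (adjusted p = 0.057, edgeR) and passed with the mouse as a block (-0.995, adjusted p = 1.2e-05, edgeR).

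Of the snoRNA hosts, Snhg11 read 717, 504 and 543 CPM in the positive fraction and 2239, 2378 and 2555 CPM in the negative. It fell 3.19-fold without overlap (log2 difference -1.67 ± 0.18, adjusted p = 0.00032, edgeR). Gas5 read 105, 50.6 and 56.3 CPM against 131, 104 and 89.8 CPM. On library totals Gas5 was lower in all 3 mice, and the groups overlapped through mouse 290. On TMM effective totals over all 29 libraries, mouse 290 was the higher in the positive fraction. The fitted difference was -0.27 ± 0.32 (adjusted p = 0.50, edgeR). With the mouse as a block it was -0.33 (adjusted p = 0.046), and without mouse 290 it was -0.55 (adjusted p = 0.0013). Without mouse 290, Mirg (-0.62, adjusted p = 0.024) and Peg13 (-0.94, adjusted p = 3.7e-06) passed as well. The number of all genes called also moved with the mouse left out, from 3588 to 9732. With all mice, 3568 genes were higher and 3304 lower. Whether the extra calls of Gas5, Mirg and Peg13 went beyond such a shift over all genes was not tested. The positive library of mouse 290 stood apart in other lists too: its astrocyte markers summed to 21913 CPM against 33501 and 31901 CPM in mice 293 and 294, its microglial markers to 175 against 84.2 and 90.5 CPM, and the other snoRNA hosts to 214 against 85.4 and 87.6 CPM.

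Markers of the other neural and immune cell types moved with these falls. All 19 neuronal markers tested were lower in the positive fraction, with a median log2 difference of -1.56 and a summed level of 3505 to 4299 CPM against 13747 to 16266 CPM. So were 15 of 15 microglial markers (median -2.32, summed level 84.2 to 175 CPM against 484 to 705 CPM) and 11 of 12 oligodendrocyte markers (median -2.79, 1231 to 1441 CPM against 6641 to 8068 CPM). Their part in the result was not tested. On library totals alone, without the TMM scaling for composition, the median of all genes stood at -0.31, the calls were 2438 higher and 4818 lower in place of 3568 and 3304, and Mirg (-0.69, adjusted p = 0.0499) and Peg13 (-1.31, adjusted p = 0.021) passed too.

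Other long noncoding RNAs were mixed. Of 26 listed, 14 could be tested, of which 8 fell and 3 rose. Norad, a cytoplasmic RNA that binds Pumilio proteins, was at 489 ± 22.3 CPM (SD, n = 3) in the positive and 2121 ± 132 CPM in the negative fraction (log2 difference -1.77, adjusted p = 9.4e-05, edgeR). Mir124a-1hg, the host of a neuronal miRNA, fell by 2.01 on the log2 scale (adjusted p = 0.00042, edgeR). Pantr1 went the other way, at 153 ± 78.8 CPM against 29.4 ± 12.0 CPM (log2 difference 2.74, adjusted p = 0.0020, edgeR). Of 17 further snoRNA hosts tested, 2 fell (Snhg14 and Snhg17) and 1 rose (Snhg18, log2 difference 2.20, adjusted p = 0.00067, edgeR). Among mRNAs for nuclear speckle proteins 5 of 18 fell, led by Pnisr (-0.90), and 1 rose (Srsf5, 0.47), and among those for paraspeckle proteins 2 of 15 fell, Matr3 (-0.87) and Cpsf6 (-0.64), and 2 rose. Of the coding genes listed for the same loci 17 of 24 were tested, of which 4 fell, led by Rtl1 (-1.88), Kcnk9 (-1.73) and Begain (-1.37), and 5 rose, led by Cd81 (2.00).

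**Figure D2:**
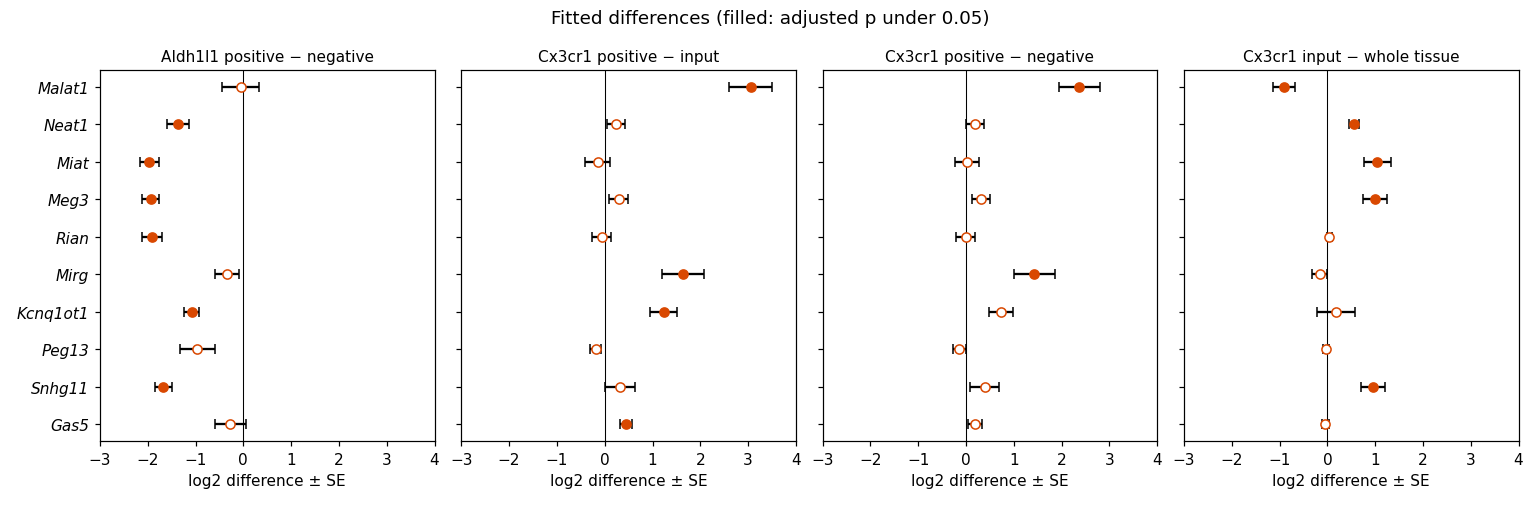
Fitted log2 difference ± SE (edgeR) of the 10 RNAs in the pull-down of each line and between input and whole tissue, with filled points where the adjusted p was under 0.05. Of the filled points in the Aldh1l1-NuTRAP panel all lie left of 0, and in both Cx3cr1-NuTRAP pull-down panels all lie right of 0, with Malat1 farthest.

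The second comparison asked the same of microglial ribosomes. In the Cx3cr1-NuTRAP mice 4 of the 10 RNAs rose in the positive fraction against input, and none fell. Malat1 rose 8.30-fold, Mirg 3.12-fold, Kcnq1ot1 2.35-fold and Gas5 1.36-fold. Of all 13840 genes tested 23.2% were higher and 25.6% lower. The other 6 RNAs did not pass the test, and their levels in the positive fraction were spread on both sides of the input. The median log2 difference of the 10 was 0.31, and that of all genes 0.00. Besides the microglial markers, 11 of 12 oligodendrocyte markers (median -0.68, summed level 1449 to 3887 CPM against 5080.0 to 5831 CPM) and 11 of 15 astrocyte markers (median -0.41) were lower in the positive fraction, 4 of 19 neuronal markers were lower and 1 higher, and 4 of 12 endothelial markers were higher. Their part in the result was not tested.

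Malat1 read 4505, 4318, 5261, 871, 1012 and 1597 CPM in the positive fraction of mice 155, 192, 194, 209, 210 and 277 (lowest 871, median 2957, highest 5261), and 435, 408, 415, 281, 303 and 320.2 CPM in their inputs. Every positive library lay above every input, by 3.11- to 12.7-fold within a mouse, and the positive libraries themselves fell far apart. The log2 difference was 3.05 ± 0.45 (adjusted p = 0.00014, edgeR), and it kept its call in all alternatives run. Neat1 read 367, 250.5, 297, 171, 155 and 189 CPM in the positive fraction, and its inputs ran from 171 to 237 CPM with a median of 207. The positive fraction was the higher in 3 of 6 mice, and the difference was 0.24 ± 0.20 (adjusted p = 0.33, edgeR). Miat was higher in 2 of 6 mice, with 229.7 to 736 CPM in the positive fraction and 391 to 550.1 CPM in the input (-0.15 ± 0.27, adjusted p = 0.66, edgeR).

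Of the imprinted RNAs, Mirg read 47.5, 35.9, 52.2, 7.88, 8.16 and 16.3 CPM in the positive fraction, in the same order of mice, and 7.41 to 10.3 CPM in the inputs with a median of 9.38. It was higher in 5 of 6 mice, with mouse 210 the exception, and the groups overlapped (log2 difference 1.64 ± 0.45, adjusted p = 0.0089, edgeR). Kcnq1ot1 read 983, 860.2, 901, 363, 399 and 374 CPM against inputs of 245 to 372 CPM with a median of 259. It was higher in 6 of 6 mice, by 1.46- to 4.01-fold (log2 difference 1.23 ± 0.28, adjusted p = 0.0027, edgeR). Meg3 read 7447, 6139.5, 6792, 3348, 3541 and 3806 CPM against inputs of 3703 to 4751 CPM. The first 3 of these mice were above every input and the libraries of mice 209 and 210 below every input, and the difference was 0.29 ± 0.20 (adjusted p = 0.24, edgeR). Rian ran from 307 to 730.0 CPM against 501 to 549.5 CPM, was higher in 3 of 6 mice, and was below every input in mice 209, 210 and 277 (-0.07 ± 0.21, adjusted p = 0.81, edgeR). Peg13 ran the other way across the mice, with 404, 369 and 322 CPM in mice 155, 192 and 194 and 554, 525 and 448 CPM in mice 209, 210 and 277 (-0.19 ± 0.11, adjusted p = 0.17, edgeR).

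Of the snoRNA hosts, Gas5 read 122, 137, 129, 81.3, 96.8 and 105 CPM in the positive fraction and 100.5, 86.8, 83.4, 72.8, 79.5 and 76.4 CPM in the inputs. It was higher in 6 of 6 mice by a small and even step of 1.12- to 1.58-fold (log2 difference 0.44 ± 0.12, adjusted p = 0.0082, edgeR). Snhg11 read 3609.8, 2602, 3796, 1041, 1001 and 1693 CPM against inputs of 1610.4 to 2109 CPM. It was higher in 3 of 6 mice (0.32 ± 0.31, adjusted p = 0.41, edgeR).

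**Figure D3:**
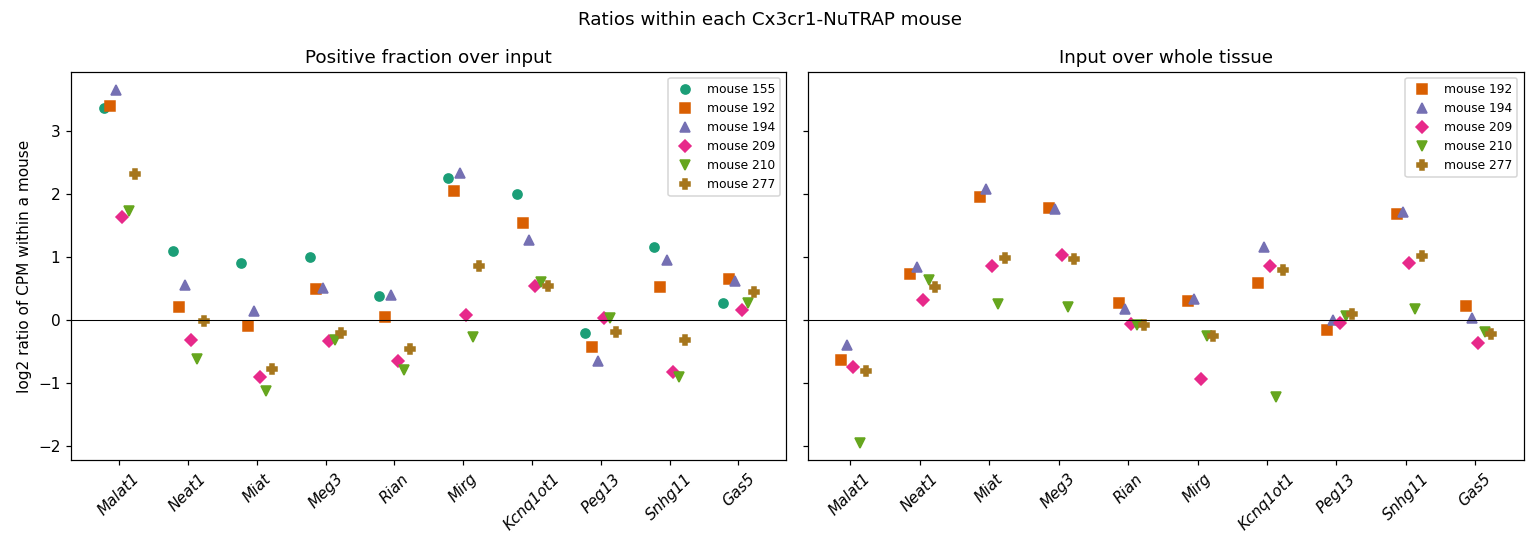
The log2 ratio of CPM within each Cx3cr1-NuTRAP mouse for the 10 RNAs, positive fraction over input on the left (6 mice) and input over whole tissue on the right (5 mice). Malat1, Kcnq1ot1 and Gas5 lie above 0 in all 6 mice on the left, and on the right mouse 210 lies apart in Malat1 and Kcnq1ot1.

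The positive libraries of mice 155, 192 and 194 held the highest 3 levels of Malat1, Neat1, Miat, Meg3, Rian, Mirg, Kcnq1ot1, Snhg11 and Gas5 and the lowest 3 of Peg13. The same mice also held the highest 3 levels of Malat1 and Gas5, and the lowest 3 of Peg13, in the input. In the negative fraction they held the highest 3 of Malat1 and Mirg. In whole tissue, by contrast, mice 192 and 194 held the lowest 2 levels of Neat1, Miat, Meg3, Rian, Mirg, Snhg11 and Gas5. The 10 RNAs together took 0.701% to 1.89% of the counts in the positive fraction, against 0.766% to 0.940% in the input. The summed level of 18 mRNAs for nuclear speckle proteins was also highest in these 3 mice, at 5521, 4731, 6495, 2699, 2662 and 3466 CPM in mice 155, 192, 194, 209, 210 and 277. The 15 microglial markers summed to 5897, 6780.2, 10462, 4268, 5089 and 5893.5 CPM, the 20 neuronal markers to 12007, 12928, 11381, 15859.7, 15076 and 14501 CPM, and the 12 endothelial markers to 184, 228, 219, 353, 373 and 340.5 CPM. The 15 astrocyte markers summed to 4722, 4612, 3818, 5671, 5840.2 and 5610.3 CPM. The 12 oligodendrocyte markers did not follow this division, at 3273, 3525, 1449, 3887, 3835 and 3147 CPM, with mouse 194 alone far below the rest. The libraries with the highest levels of these 9 RNAs are thus those with the lowest mouse numbers, but the labels give no date, batch, antibody time or way of killing for a mouse, and the part of these measures in the spread was not tested.

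Against the negative fraction of the same mice, which asks the same with unbound RNA as the reference, 2 of the 10 rose and none fell, where 12.8% of the 13777 genes tested were higher and 11.6% lower. Malat1 read 784, 652, 633, 435, 552 and 439.9 CPM in the negative fraction and was above it in the positive fraction of every mouse, without overlap between the groups (5.16-fold, log2 difference 2.37 ± 0.43, adjusted p = 0.0011, edgeR). Mirg, at 8.17 to 12.8 CPM in the negative fraction, passed as well (log2 difference 1.43 ± 0.43, adjusted p = 0.026, edgeR), but was higher in 4 of 6 mice only. Its call was lost with the mouse as a block (1.07, adjusted p = 0.066) and without any of mice 155, 192, 194 or 277 (adjusted p 0.051 to 0.13). Kcnq1ot1, at 338 to 508 CPM in the negative fraction, was 2.91-, 2.01- and 1.77-fold higher in mice 155, 192 and 194, at ratios of 1.001, 1.04 and 0.996 in mice 209, 210 and 277, and missed the threshold (0.73 ± 0.26, adjusted p = 0.054, edgeR); it passed without mouse 209 (0.83, adjusted p = 0.042). Gas5 was at 82.7 to 139.5 CPM, and its difference was 0.19 ± 0.15 (adjusted p = 0.37, edgeR). In the same comparison 15 of 15 microglial markers (median 3.66) and 2 of 12 endothelial markers were higher, and 11 of 12 oligodendrocyte (median -0.75), 12 of 15 astrocyte (median -0.42) and 2 of 19 neuronal markers were lower, and their part was not tested.

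The other lists can be set beside these values. Of 16 other long noncoding RNAs tested against input, 5 fell and none rose, among them Norad, at 1284 ± 273 CPM in the positive fraction and 1787 ± 82.0 CPM in the input (log2 difference -0.46, adjusted p = 0.0067, edgeR), Oip5os1 (-1.90, adjusted p = 1.9e-06) and Sox2ot (-0.58, adjusted p = 8.9e-05). Of 17 other snoRNA hosts 4 rose and none fell: Snhg20 (1.11), Snhg16 (0.73), Snhg3 (0.71) and Snhg12 (0.29). Against the negative fraction of the same mice none of the 17 passed, with a list median of 0.03. Of the 18 mRNAs for nuclear speckle proteins 8 rose and none fell, led by the splicing kinases Clk1 (1.29 ± 0.43, adjusted p = 0.025, edgeR) and Clk4 (0.99) and by Rbm25 (0.86), with a list median of 0.45. Their summed level was below every input (3025 to 3256 CPM) in mice 209 and 210, and against the negative fraction 2 of 18 passed, Clk1 and Clk4. Of the 15 for paraspeckle proteins 5 rose, led by Taf15 (0.78), Ewsr1 (0.58) and Hnrnph3 (0.49), and 2 fell, Sfpq (-0.25) and Hnrnpk (-0.19). Of the 24 coding genes listed for the same loci 18 were tested against input, of which 6 rose and 3 fell. Crybb1, a crystallin gene that is also a microglial transcript, was highest of these at 3.81 (adjusted p = 3.0e-08, edgeR), and Trappc9, which surrounds Peg13, was at 0.13 (adjusted p = 0.048, edgeR).

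The difference between the lines was tested directly, as the difference between the positive-over-negative ratios of Aldh1l1-NuTRAP and Cx3cr1-NuTRAP mice. This ratio was lower in the astrocyte line for 9 of the 10 RNAs and higher for none, with 29.9% of 13986 genes lower and 25.6% higher. The log2 difference was beyond -2 for Malat1 (-2.48 ± 0.71, adjusted p = 0.0065, edgeR), Meg3 (-2.30 ± 0.33, adjusted p = 1.1e-05), Snhg11 (-2.12 ± 0.49, adjusted p = 0.0012) and Miat (-2.03 ± 0.43, adjusted p = 0.00059). Rian (-1.95), Kcnq1ot1 (-1.86), Mirg (-1.82), Neat1 (-1.59) and Peg13 (-0.87) followed. Gas5 did not pass (-0.51 ± 0.33, adjusted p = 0.20, edgeR) until the mouse was added as a block (-0.57, adjusted p = 0.034) or mouse 290 was left out (-0.74, adjusted p = 0.040). The calls of Mirg, Peg13 and Malat1 did not survive all single mice left out: Mirg missed without any of mice 155, 192, 194, 290, 293 or 294 (adjusted p 0.055 to 0.125), Peg13 without any of mice 155, 192, 209, 210, 277, 293 or 294 (adjusted p 0.055 to 0.084), and Malat1 without mouse 294 (adjusted p = 0.054). The neuronal (19 of 19 tested, median -1.51), microglial (15 of 15, median -6.11) and oligodendrocyte markers (10 of 12, median -1.97) differed in the same direction. All 15 astrocyte markers (median 3.51) and 1 oligodendrocyte marker went the other way. Of 12 endothelial markers 3 were lower and 1 higher. The part of the markers was not tested.

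Set against each other directly, the positive fractions of the lines differed in 8 of the 10 RNAs, all lower in Aldh1l1-NuTRAP, with 33.1% of 13679 genes lower and 30.6% higher. The line, its set of mice and the time from tamoxifen to collection cannot be told apart, here or in the difference of ratios. Of the markers, 19 of 19 neuronal (median -1.47), 10 of 12 oligodendrocyte (-1.46) and 15 of 15 microglial (-5.91) were lower in Aldh1l1-NuTRAP as well. All 15 astrocyte markers (median 3.24) and 1 oligodendrocyte marker were higher. Of 12 endothelial markers 3 were lower and 1 higher. The part of the markers was not tested. The differences ran from -1.18 (Peg13, adjusted p = 0.0021, edgeR) to -1.96 (Meg3, adjusted p = 0.00033). Malat1 was at -1.70 ± 0.65 (adjusted p = 0.039, edgeR), overlapped between the lines, and missed the threshold without any of mice 155, 192, 194, 290, 293 or 294 (adjusted p 0.057 to 0.126). Mirg (-1.35, adjusted p = 0.089) and Gas5 (-0.35, adjusted p = 0.25) did not pass; Mirg passed without mouse 209 (-1.54, adjusted p = 0.036) or mouse 210 (-1.45, adjusted p = 0.047), and Gas5 without mouse 290 (-0.78, adjusted p = 0.0092).

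The next comparison set the input, a cleared detergent homogenate, against whole tissue. The input came from a hemisphere, and the whole tissue libraries are labelled as slices. The piece of brain and the clearing of the homogenate cannot be told apart here. In the Cx3cr1-NuTRAP mice Malat1 fell 1.87-fold in the input against whole tissue, whereas Miat (2.06-fold), Meg3 (2.00-fold), Snhg11 (1.94-fold) and Neat1 (1.47-fold) rose. Thus 4 of the 10 were higher and 1 lower, with 16.3% of 13610 genes higher and 14.2% lower. Rian, Mirg, Peg13 and Gas5 differed by less than 0.2 on the log2 scale and did not pass, and Kcnq1ot1 did not pass with all mice.

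Malat1 read 633, 546, 466, 1166 and 562 CPM in whole tissue of mice 192, 194, 209, 210 and 277, and 408, 415, 281, 303 and 320.2 CPM in the inputs of the same mice, with 435 CPM in that of mouse 155. The input was the lower in 5 of 5 mice and the groups did not overlap (log2 difference -0.91 ± 0.22, adjusted p = 0.011, edgeR). Without mouse 210 the difference was -0.58, still past the threshold, and in a fit over all groups it missed it (-0.93, adjusted p = 0.083). Neat1 read 131, 111, 169.9, 151 and 133 CPM in whole tissue, below the lowest input of 171 CPM, and its difference was even across the mice, at 1.25- to 1.80-fold (0.56 ± 0.10, adjusted p = 0.0011, edgeR). Miat read 128, 130.3, 258, 415 and 274 CPM in whole tissue and was higher in the input of 5 of 5 mice (1.04 ± 0.29, adjusted p = 0.019, edgeR).

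Meg3 read 1263, 1393, 2049, 3792 and 2233 CPM in whole tissue against 4360.2, 4751, 4207, 4381 and 4388 CPM in the inputs of these mice and 3703 CPM in that of mouse 155. Within a mouse the input was 1.16- to 3.45-fold higher, and the groups overlapped only through the tissue of mouse 210 and the input of mouse 155 (1.00 ± 0.25, adjusted p = 0.013, edgeR). Snhg11 followed the same pattern, at 556, 597, 972, 1646 and 1042 CPM in whole tissue and 1610.4 to 2109 CPM in the input (0.95 ± 0.25, adjusted p = 0.015, edgeR). Kcnq1ot1 read 194, 166, 136, 611 and 148 CPM in whole tissue and 245 to 372 CPM in the input. It was higher in the input of 4 of 5 mice and lower in mouse 210, with a difference of 0.18 ± 0.39 (adjusted p = 0.77, edgeR); without mouse 210 it was 0.80 (adjusted p = 0.0010). By contrast Rian (437 to 559 CPM in whole tissue), Peg13 (474 to 555 CPM) and Gas5 (74.0 to 93.7 CPM) overlapped between the groups, with differences of 0.04 ± 0.06, -0.04 ± 0.06 and -0.04 ± 0.08. Rian and Peg13 did not pass (adjusted p = 0.64 and 0.69, edgeR), nor did Gas5 (adjusted p = 0.73) and Mirg (-0.16 ± 0.16, adjusted p = 0.49).

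The whole tissue library of mouse 210 was the shallowest, and it also held 353 CPM of endothelial markers against 568 to 639 CPM in the other 4 and the highest Malat1, Meg3, Miat, Snhg11 and Kcnq1ot1 of the 5. It was also the highest of the 5 in microglial markers (733 CPM against 476.5 to 544 CPM), neuronal markers (14839.9 CPM against 13063.5 to 13738 CPM) and nuclear speckle mRNAs (2934 CPM against 2327 to 2648 CPM). The calls of Meg3 (adjusted p = 0.060) and Snhg11 (0.067) were lost without mouse 209, and that of Miat without any of mice 192, 194, 209 or 277 (adjusted p 0.0502 to 0.0691). Markers of other cell types moved between input and tissue: 12 of 12 endothelial and 11 of 12 oligodendrocyte markers were lower in the input, 6 of 15 astrocyte markers were lower (median -0.17), and 7 of 19 neuronal markers were higher and 4 lower. Their part in the result was not tested. Of the 18 mRNAs for nuclear speckle proteins 11 rose in the input and none fell, led by Pnisr (0.74), Luc7l3 (0.65) and Srsf11 (0.63), and of 15 for paraspeckle proteins 7 rose, led by Sfpq (0.46 ± 0.06, adjusted p = 0.00011, edgeR). Of 16 other long noncoding RNAs 4 rose, led by Mir124a-1hg (1.54, adjusted p = 0.010, edgeR), and 1 fell, Rmst (-0.78).

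The last comparison set the unbound RNA against the input it came from, at first without the mouse in the fit. In the Cx3cr1-NuTRAP negative fraction against input 2 of the 10 rose and none fell, while 1.40% of 13749 genes were higher and 4.70% lower. Malat1 rose 1.63-fold (log2 difference 0.71 ± 0.15, adjusted p = 0.029, edgeR) and Kcnq1ot1 1.44-fold (0.52 ± 0.11, adjusted p = 0.029, edgeR). Both were higher in the negative fraction of 6 of 6 mice, by 1.37- to 1.82-fold for Malat1, whose groups did not overlap, and by 1.36- to 1.47-fold for Kcnq1ot1, whose groups did. With the mouse as a block 5116 genes passed in place of 839, and besides Malat1 and Kcnq1ot1, Gas5 (0.26, adjusted p = 0.0019) and Mirg (0.22, adjusted p = 0.044) were higher and Miat (-0.15, adjusted p = 0.0037) lower. With all groups in one fit neither Malat1 (adjusted p = 0.37) nor Kcnq1ot1 (adjusted p = 0.41) passed, and without the filter on low counts Malat1 missed (adjusted p = 0.058). Without the block, the Malat1 call was lost without any of mice 192, 194, 209, 210 or 277 (adjusted p 0.084 to 0.165) and that of Kcnq1ot1 without mouse 192, 209, 210 or 277 (adjusted p 0.085 to 0.16), whereas Gas5 passed without mouse 155 (0.21, adjusted p = 0.015).

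Across all 29 libraries, the genes with the most similar profile were searched among 14114 genes by Pearson's r of log2 CPM. These values describe libraries that share mice, cell types and depth, and carry no test. Malat1 was most like BC017643 (r = 0.94), Adam15 (0.91) and Arrb2 (0.90). Meg3 was most like Pnpla3 (0.97), Snhg11 (0.96) and Inha (0.95), and Snhg11 was most like Ccnl1 (0.97), Meg3 and Sfrs18 (0.96 each), the symbol Sfrs18 being the table's name for Pnisr of the speckle list. Mirg was most like Akap8l (0.96), 4933439C10Rik (0.96) and Clasrp (0.95), and Kcnq1ot1 like Grk4 (0.995), A630089N07Rik (0.99) and A130077B15Rik (0.97). Miat was most like Pnpla3, Nxf1 and Trank1 (0.94 to 0.95), Rian like Sytl2, Nup210 and 2410089E03Rik (0.94 to 0.95), and Neat1 like Lmnb2, Zfyve28 and Iffo1 (0.90 each). Peg13 was most like Mapk10 (0.97), Rph3a (0.97) and Wdr47 (0.96), and Gas5 like 2810008D09Rik (0.92), the table's name for the snoRNA host Snhg20, Cdk10 (0.90) and Atp6v0b (0.90).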

How the data were processed

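TRAP-RNAseq libraries were prepared by the authors from oligo-dT-selected RNA with a strand-specific kit, trimmed and aligned directionally to mm10 in Strand NGS, and reads in the wrong direction were removed. The deposited values used here are expected counts per gene (82.8% of the values above 0 are not whole), and replicates were not pooled. The deposited log2 values, which the authors normalized with DESeq, were not used. Expected counts were rounded to whole numbers and fitted with edgeR 4.0.16 in R 4.3.3 (TMM, robust quasi-likelihood test, two-sided, Benjamini-Hochberg over all genes tested, threshold 0.05). A gene was tested if all libraries of 1 or more of the compared groups had counts above 20. CPM used the total of all gene rows, 4260949 to 26857866 counts per library; this number limits the precision of low rows, and errors are SD over mice or the SE of the fit. The study's own test was an ANOVA, which was replaced because the values are counts. Fits were tested on simulated data.

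The 29 samples were grouped by their labels, and each mouse is a replicate. Fractions with the same number come from the same mouse: the deviations of such libraries from their group means correlated at 0.44 to 0.64 over 3 pairs in Aldh1l1-NuTRAP and at 0.09 to 0.60 over 6 pairs of negative fraction and input, but at -0.23 to 0.21 for positive fraction and input. Named genes were the 10 RNAs, up to 3 genes in each direction with the largest difference from each list, and the 3 genes most like each RNA; Norad, Trappc9, Snhg12 and the Snhg7 and Snhg8 start sites were named after their values were seen. List genes were matched by Entrez number through RefSeq; 4 of 26 other long noncoding RNAs had no row. The RNAs and the lists were chosen with earlier results of these data known. Alternatives were DESeq2 1.42.0 (its size factors and its Wald test), library totals, scaling without the 10 RNAs, no filter, each mouse left out, the mouse as a block, and all groups in one fit; a block over the 5 mice with whole tissue was added after seeing the data. Aldh1l1-NuTRAP input is not analysed here. The antibody step lasted an hour or overnight, and which mouse had which is not given in the sources used here.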

Additional observations from a re-analysis of the deposited data

Results flagged for a closer look

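In groups of 5 or 6 libraries, 40 sets of values were searched for a library far from the others, and 4 were found; chance gives about 1 in 20. In whole tissue, mouse 210 stood apart at 1166 CPM of Malat1 and at 611 CPM of Kcnq1ot1, in the shallowest library of the series. In the Cx3cr1-NuTRAP negative fraction, mouse 155 stood apart at 340.0 CPM of Peg13, below the other 5, and at 139.5 CPM of Gas5, above them. That library also summed to 260.1 CPM of other snoRNA hosts against 141.3 to 161.5 CPM in the other 5. Its nuclear speckle mRNAs summed to 3622 against 2997.5 to 3142 CPM, and its astrocyte markers to 5238 against 6199 to 6702.5 CPM. Its oligodendrocyte, endothelial and paraspeckle sums lay within the range of the others.

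The positive-over-negative ratio differed between the lines, by the edgeR interaction test, in 9 of the 10 RNAs, all lower in Aldh1l1-NuTRAP, where 29.9% of all genes tested were lower and 25.6% higher. With a mouse left out 6 to 9 of them passed, the fewest without mouse 294. The log2 differences, Aldh1l1-NuTRAP minus Cx3cr1-NuTRAP, were -2.48 for Malat1, -1.59 for Neat1, -2.03 for Miat, -2.30 for Meg3, -1.95 for Rian, -1.82 for Mirg, -1.86 for Kcnq1ot1, -0.87 for Peg13 and -2.12 for Snhg11.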

How the results depend on the processing

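Of the refitted differences of single RNAs, 828 kept their direction and their side of the threshold, 48 lost a call, 26 gained one, and 28 turned direction, all of the last with adjusted p above the threshold before and after. No paired fit changed a call of the 10 RNAs other than those given beside the results. In the negative fraction against input of Cx3cr1-NuTRAP mice, 839 genes passed in edgeR (4377 at an unadjusted p under 0.05), against 2050 in DESeq2, 272 without the filter, 59 with all groups in one fit, 5116 with the mouse as a block, and 0 to 3814 with a mouse left out: 0 without mouse 192, 209, 210 or 277, 3 without mouse 194 and 3814 without mouse 155. The RNAs called higher there were 1 without the filter, 0 with all groups, 4 with the block (and 1 lower), and 0 to 3 with a mouse left out. In positive against negative fraction of these mice, the RNAs called higher were 1 without the filter and 1 with the block, and 1 to 3 with a mouse left out, and the genes called were 1747 (without mouse 192) to 4273 in place of 3351. In input against whole tissue, all groups in one fit gave 2453 genes in place of 4143 and 0 RNAs lower, and leaving out a mouse gave 2569 to 5395 genes and 1 (without mouse 209) to 5 RNAs higher. In Aldh1l1-NuTRAP, 6872 genes passed, and 3588 to 9732 with a mouse left out (3666 without mouse 293). Directions turned near 0: in positive against negative fraction of Cx3cr1-NuTRAP, Rian was 0.0047 with DESeq2's size factors, 0.0048 in DESeq2, 0.0203 with the 10 RNAs out of the scaling and 0.0204 with all groups, and Miat -0.0186 on library totals and -0.1233 with the block; in negative fraction against input, Meg3 was 0.0019 with DESeq2's size factors and in DESeq2. With a mouse left out, the ranges that crossed 0 were -0.48 to 0.40 for Malat1 in Aldh1l1-NuTRAP, -0.195 to 0.0476 for Rian against input, -0.0418 to 0.316 for Neat1, -0.27 to 0.14 for Miat and -0.15 to 0.10 for Rian against the negative fraction, -0.0128 to 0.0687 for Rian, -0.280 to 0.0445 for Mirg, -0.0454 to 0.804 for Kcnq1ot1 and -0.107 to 0.0159 for Gas5 in input against whole tissue, and -0.0404 to 0.0229 for Meg3 and -0.0487 to 0.0278 for Peg13 in negative fraction against input. The cause of these changes was not tested. Of 60 group means, 9 moved by more than the SD on TMM effective library sizes, 7 of them in the Aldh1l1-NuTRAP positive fraction. Library totals moved the median of all genes by over 0.1 on the log2 scale in the comparisons that hold that fraction, to -0.39 between the positive fractions of the lines and -0.38 in the difference between lines. Mouse numbers mark the same animal, but deviations of same-numbered libraries correlated weakly in some Cx3cr1-NuTRAP comparisons. The correlations were -0.23 to 0.21 for positive fraction and input and -0.29 to 0.24 for positive and negative fraction. In each of these 3 of 6 pairs were over 0.1. For input and whole tissue they were -0.14 to 0.07, with 0 of 5 pairs over 0.1.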
